A study of Mus musculus with 4 samples.

Results

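The Gadd45 genes and a set of targets of the tumour suppressor p53 were read in mouse ventricular muscle with and without the cation channel gene Trpc6. The set held 10 gene symbols, namely Gadd45a, Gadd45b, Gadd45g, Cdkn1a, Mdm2, Bax, Bbc3, Sesn1, Gdf15 and Trp53inp1, and its probes were those that carry one of these symbols in the platform annotation. Of the 10 symbols, 8 had a probe, each of them 1 probe, out of 19321 named genes on the array. Bax and Gdf15 had no probe under their symbol in the annotation used here, and no value is given for them. All 8 lay above the detection limit on all 4 arrays and passed the filter on dim probes. The members were chosen by earlier readings of the knockout and wild-type intensities of these same arrays, in which Gadd45g differed. Differences between the groups are therefore given for them as a description, without a p-value.

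The samples were ventricle muscle of male 129SV mice in 2 groups of 2, a TRPC6 KO group (Trpc6-/-) with a genetic deletion of the channel gene and a WT group, and every sample was hybridised to its own array in 1 colour. Of interest is how transcript levels in the heart stand when the channel is missing. The sources used here give neither the age of the mice nor how the allele was made. Samples are numbered within each group, and whether each number is its own mouse is not stated.

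GADD45 proteins are small acidic stress proteins that bind and activate the kinase MTK1 upstream of p38 and JNK and also contact PCNA and CDK1. Gadd45a is a classical p53 target, whereas Gadd45b and Gadd45g are known as rapid responders to cytokines, NF-kB and other stress signals. p53 itself is a transcription factor that is kept low by the ubiquitin ligase MDM2. Once stabilised it raises genes that stop the cell cycle, such as Cdkn1a, and genes that open the mitochondrial route to cell death, such as Bax and Bbc3. In heart muscle the same network has been studied in pressure overload and ischaemia.

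All 10 cardiomyocyte markers were measured, with a summed normalized intensity of 241310 and 244490 units in the knockout and 239710 and 239160 units in wild type. Detection does not tell ventricle from atrium, since 5 atrial markers were measured too. The ventricular origin therefore rests on the labels. The detection limit, taken as the 95th percentile of blank and negative control spots, was 85.5 and 83.3 units on the knockout arrays and 80.8 and 91.5 units on the wild-type arrays. The single Trpc6 probe read 84.1 and 82.6 units in the knockout, against 80.5 and 89.2 units in wild type, and was below the limit on all 4 arrays, so it does not check the labels. Spot medians sat on a pedestal, with blank spots at a median of 78.4 to 87.5 units. Local background followed the spot values, with a correlation of 0.931 to 0.967 over all spots (log2). Subtracting it may therefore remove signal as well, which limits the values given below with local background subtracted. The values in the authors' table followed the spot medians along a straight line, less a constant of 78.4 to 87.7 units and with a slope of 0.807 to 1.02 that differed between arrays.

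The promoters of the 3 Gadd45 paralogues are shown first because the paralogues differed in their values, and those of Cdkn1a and Sesn1 because both genes varied between arrays of one group. Cdkn1a and Sesn1 have 2 windows each, and the one with a p53 decamer is shown. The windows run from 250 bases before to 50 bases after a transcript start and are from RefSeq on GRCm38.p6. Capitals mark a TATA box, a CCAAT box, an E-box or a p53 decamer, on either strand, and no marked match overlapped another.
Gadd45a (chr6:67037358-67037657, minus strand): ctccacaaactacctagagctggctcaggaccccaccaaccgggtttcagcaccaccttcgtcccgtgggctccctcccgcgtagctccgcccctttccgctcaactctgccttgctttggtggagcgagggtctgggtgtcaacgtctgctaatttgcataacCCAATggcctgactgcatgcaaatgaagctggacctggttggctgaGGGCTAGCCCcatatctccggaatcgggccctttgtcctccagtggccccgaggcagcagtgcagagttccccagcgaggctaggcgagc
Gadd45b (chr10:80929841-80930140, plus strand): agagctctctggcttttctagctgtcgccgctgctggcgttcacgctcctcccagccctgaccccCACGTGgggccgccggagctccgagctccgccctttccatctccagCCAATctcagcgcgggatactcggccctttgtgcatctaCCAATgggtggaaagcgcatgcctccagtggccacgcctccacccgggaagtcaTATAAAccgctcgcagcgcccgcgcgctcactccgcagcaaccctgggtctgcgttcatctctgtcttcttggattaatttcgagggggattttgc
Gadd45g (chr13:51846425-51846724, plus strand): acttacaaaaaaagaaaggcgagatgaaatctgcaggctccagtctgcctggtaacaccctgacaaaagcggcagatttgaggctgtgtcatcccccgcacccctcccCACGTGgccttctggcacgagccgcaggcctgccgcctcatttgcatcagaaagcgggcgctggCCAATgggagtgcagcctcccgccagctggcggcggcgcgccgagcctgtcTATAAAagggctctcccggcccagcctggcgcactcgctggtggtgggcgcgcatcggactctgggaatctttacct
Cdkn1a, upstream start (chr17:29090729-29091028, plus strand): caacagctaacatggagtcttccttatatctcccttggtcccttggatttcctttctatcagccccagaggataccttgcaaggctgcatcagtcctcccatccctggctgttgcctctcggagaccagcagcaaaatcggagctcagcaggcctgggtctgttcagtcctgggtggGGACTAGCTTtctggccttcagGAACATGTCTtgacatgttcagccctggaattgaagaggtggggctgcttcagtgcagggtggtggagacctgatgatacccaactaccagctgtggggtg
Sesn1, downstream start (chr10:41887189-41887488, plus strand): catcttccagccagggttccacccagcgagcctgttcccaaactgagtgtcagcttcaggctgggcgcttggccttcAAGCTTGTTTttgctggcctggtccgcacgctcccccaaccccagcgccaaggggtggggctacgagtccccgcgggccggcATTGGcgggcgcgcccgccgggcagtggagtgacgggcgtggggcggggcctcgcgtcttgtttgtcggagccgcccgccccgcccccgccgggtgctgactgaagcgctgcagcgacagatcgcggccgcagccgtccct

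Gadd45b and Gadd45g each had a TATA box (TATAAA), beginning 46 and 27 bases before the start, where Gadd45a had none, and both also had an E-box (CACGTG). A p53 decamer, the unit that is repeated in p53 response elements, was matched in the Gadd45a window as GGGCTAGCCC and in neither of the other Gadd45 windows. The upstream Cdkn1a window held 2 decamers, GGACTAGCTT and GAACATGTCT, the downstream Sesn1 window held AAGCTTGTTT, and the other window of either gene held 0. Over the 9 symbols with a window, which have 14 windows in all, decamers were found in 5 genes and 5 windows. An E-box was also in 5 genes and 5 windows, so it was not particular to Gadd45b and Gadd45g. CCAAT boxes were in 7 genes and 8 windows, and TATA boxes in 2 genes and 2 windows. Among all 32851 windows, 8.36% held a p53 decamer, 13.6% a TATA box, 37.4% a CCAAT box (CCAAT) and 7.15% an E-box. A tandem p53 decamer, a glucocorticoid element, a D-box (TTATGTAA), a cyclic AMP element (TGACGTCA) and a serum response element were searched on both strands as well and were matched in 0 member windows, and their shares over all windows were 0.00913%, 0.0396%, 0.938%, 1.79% and 1.63%. GC boxes (GGGCGG) were in 35.7% of all windows and are drawn in the map of motif matches but not capitalised. Each is a match of letters, and binding was not measured. The search for the tandem decamer allowed no mismatch and no spacer, so its 0 matches do not exclude a looser p53 element.

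**Figure D1:**
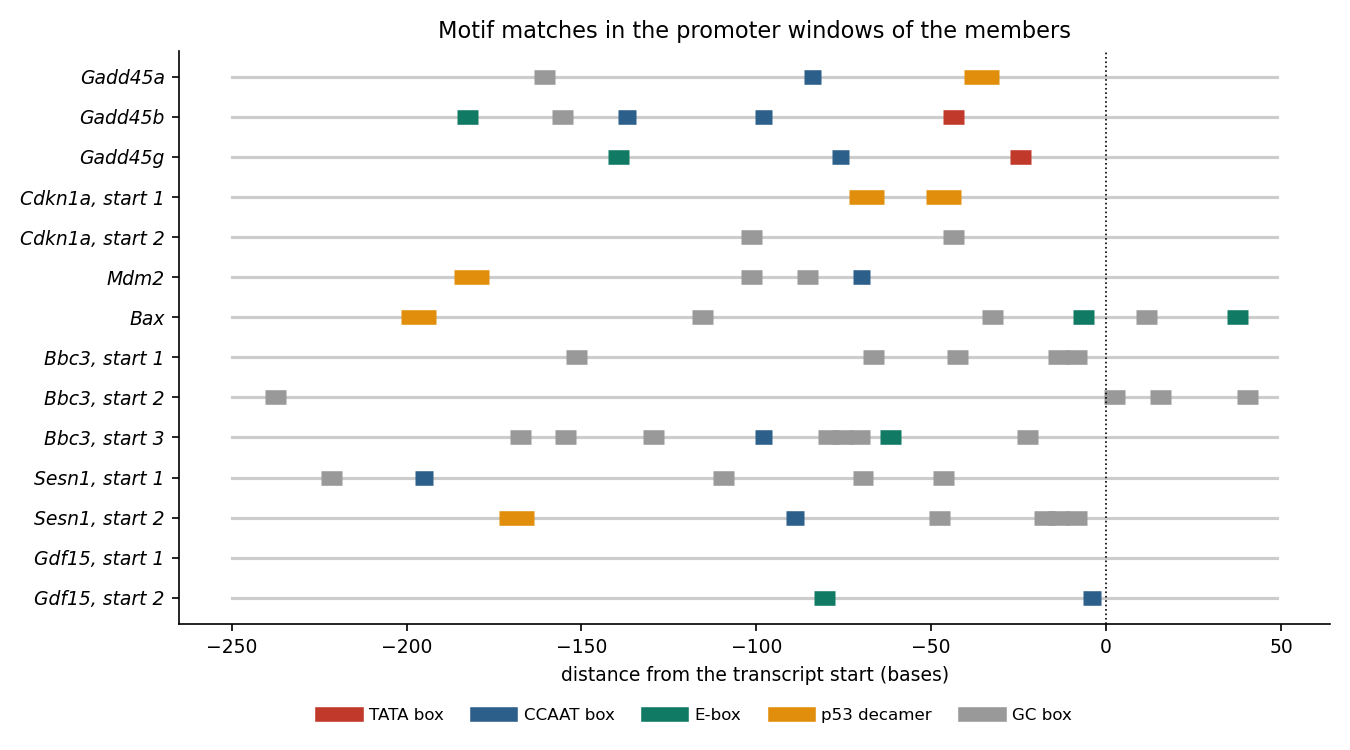
Motif matches in the promoter windows of the members, by distance from the transcript start in bases (x axis), with a line for each of the 14 windows. Gadd45b and Gadd45g carry a TATA box close to the start, and p53 decamers lie in windows of Gadd45a, Cdkn1a, Mdm2, Bax and Sesn1.

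Gadd45g, which encodes GADD45 gamma, was the member with the largest difference. Its spot median was 322 and 257 units on the knockout arrays, against 147 and 226 units on the wild-type arrays. The authors' table listed it at 228 and 179.5 units in the knockout and at 67.3 and 112 units in wild type. Both knockout arrays lay above both wild-type arrays in either table, and the first wild-type array was the lowest of the 4. On the normalized log2 scale the values were 8.25 and 7.87 in the knockout and 6.92 and 7.50 in wild type. The difference of the means was 0.85 ± 0.23 (log2, limma standard error, n = 2 arrays per group), or 1.80-fold, and the ratio of means in the authors' table was 2.28. By absolute difference this was rank 9 of the 15955 genes in the fit. The knockout arrays differed from each other by 0.38 and the wild-type arrays by 0.58, so the spread within a group was a large part of the difference.

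Each knockout array was set against each wild-type array, which gives 4 pairings. For Gadd45g they ran from 0.37 for the second arrays of both groups to 1.33 for the first arrays of both groups. That all 4 were positive follows from groups that do not overlap and adds nothing to it. Without the first wild-type array the difference was 0.56, and without the second it was 1.13. The difference was 0.54 where the local background was subtracted and 1.22 in the authors' table, the lowest and highest of the 14 alternatives run. Local background at the Gadd45g spot was 168 and 132 units in the knockout and 90.1 and 100 units in wild type. The spot median less this background was 155 and 124 units in the knockout and 56.9 and 126 units in wild type. By that measure the groups overlapped, whereas they did not once the subtracted values were corrected and normalized.

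Gadd45a, the p53-responsive paralogue, read 231 and 264 units in the knockout and 273 and 275 units in wild type. The authors' table gave 141 and 187 units in the knockout and 191 and 151 units in wild type, so the groups overlapped there, although both knockout spot medians were the lower. The normalized difference was -0.07 ± 0.09 (log2), with values of 7.71 and 7.92 in the knockout and 7.95 and 7.82 in wild type. It was 0.34 with local background subtracted and 0.04 without the first knockout array. No direction can be given for Gadd45a.

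Gadd45b, the paralogue best known downstream of NF-kB and TGF-beta, read 163 units on both knockout arrays, against 139 and 204 units on the wild-type arrays. The wild-type arrays thus enclosed both knockout values, also in the authors' table with 75.9 and 83.8 units in the knockout and 59.2 and 93.8 units in wild type. The normalized difference was 0.03 ± 0.17 (log2). It was -0.22 without the first wild-type array and 0.29 without the second. Of the 3 paralogues only Gadd45g had groups that did not overlap on the normalized scale, and the difference between paralogues was not tested.

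**Figure D2:**
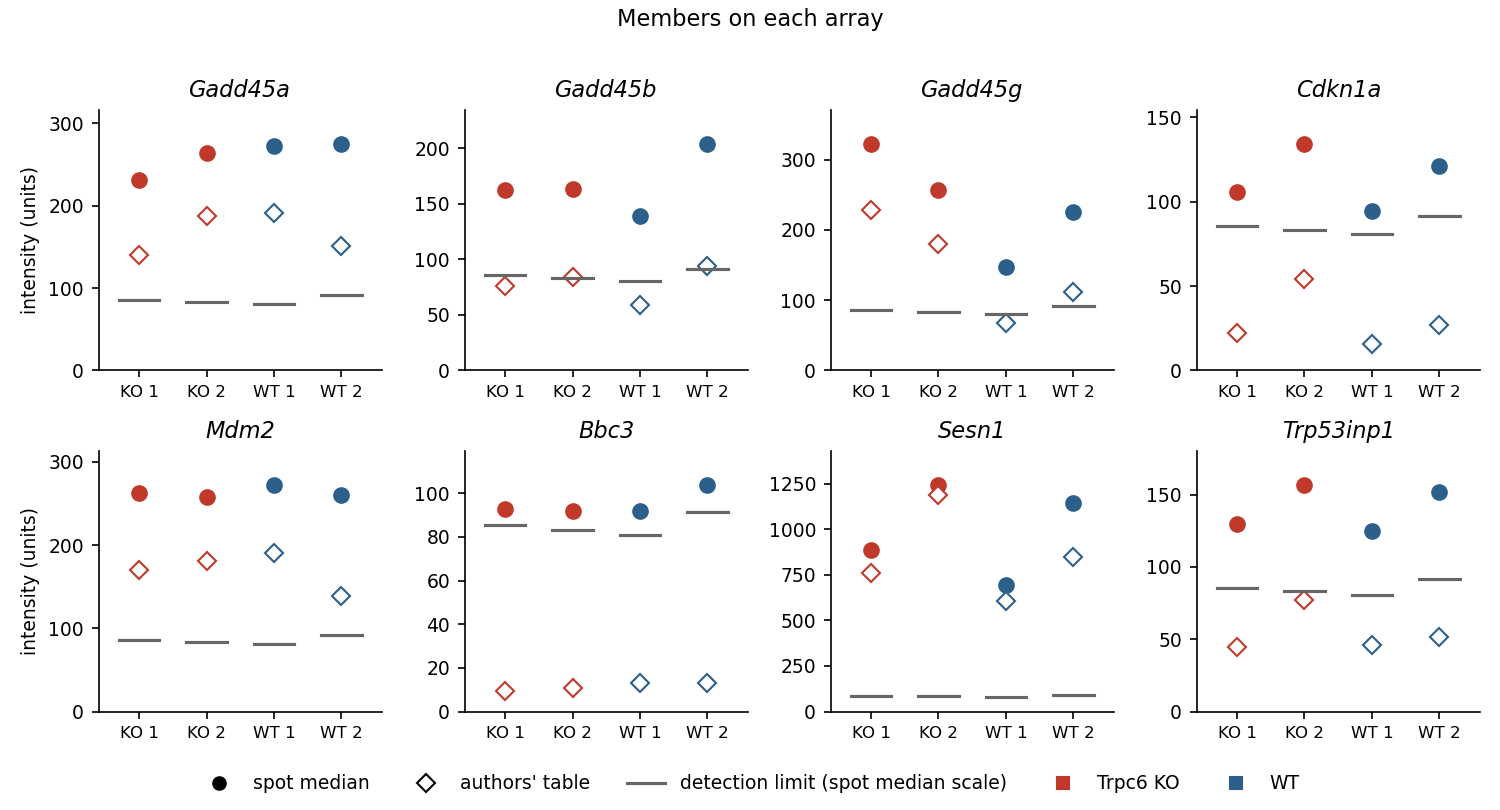
Spot median (filled circles) and value in the authors' table (open diamonds) of the 8 measured members on the 2 Trpc6 KO and 2 WT arrays, in intensity units, each panel on its own linear axis from 0, with the detection limit of the spot medians as a bar. Gadd45g reads 322 and 257 units in the knockout and 147 and 226 units in wild type, and Bbc3 lies just above the limit on every array.

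Cdkn1a encodes p21, the inhibitor of cyclin-dependent kinases through which p53 stops the cell cycle. Its probe was dim, with 106 and 134 units in the knockout and 94.2 and 121 units in wild type, which is 1.24 and 1.61 times the detection limit in the knockout and 1.17 and 1.32 times in wild type. The authors' table listed 21.9 and 54.2 units in the knockout, against 15.5 and 26.7 units in wild type. The second knockout array was the highest of the 4, and the first knockout array lay between the wild-type arrays. The normalized difference was 0.28 ± 0.18 (log2), or 1.21-fold, and 0.76 on the log2 scale of the authors' table. Without the second knockout array it was 0.05 and without the first wild-type array 0.14. Local background at the spot was 86.0 and 122 units in the knockout and 86.4 and 103 units in wild type, and with it subtracted the difference was 0.10.

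Mdm2, the ligase that degrades p53 and is itself a p53 target, was the steadiest of the brighter members. It read 262 and 258 units in the knockout and 272 and 259.6 units in wild type, and the authors' table listed 170.5 and 180.3 units in the knockout and 190.4 and 139 units in wild type. The normalized values were 7.92 and 7.87 in the knockout, against 7.95 and 7.73 in wild type, and the difference was 0.05 ± 0.08 (log2). On that scale both knockout arrays lay inside the range of the wild-type arrays. Leaving out the second wild-type array gave -0.05, and with local background subtracted the difference was 0.44.

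Bbc3 encodes PUMA, a BH3-only protein that frees BAX and BAK to open the mitochondrial membrane. It was the dimmest member, at 92.7 and 91.8 units in the knockout and 91.9 and 104 units in wild type, or 1.08 and 1.10 times the detection limit in the knockout and 1.14 times on each wild-type array. The authors' table listed 9.3 and 10.8 units in the knockout and 13.2 and 13 units in wild type. Both knockout values were below both wild-type values there and on the normalized scale, where the difference was -0.06 ± 0.04 (log2). The offset of 50 units added before taking logs shrinks such dim values, and the difference was -0.39 on the log2 scale of the authors' table. With scaling to the 75th percentile it was -0.02. At this level few units separate the arrays from the blank spots.

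Sesn1 encodes sestrin 1, a p53 target that restrains mTORC1. Its spot median was 884 and 1244 units in the knockout and 695 and 1142 units in wild type, and the authors' table gave 761 and 1189 units in the knockout, against 605 and 850.3 units in wild type. The highest value was on the second knockout array and the lowest on the first wild-type array, and the groups overlapped. The normalized difference was 0.32 ± 0.27 (log2), or 1.25-fold. It was 0.01 without the first wild-type array and 0.63 without the second. Local background at the Sesn1 spot was 536 and 1023 units in the knockout and 438 and 520 units in wild type, far above the blank spots. With it subtracted the difference was -0.39, a value that may reflect removed signal.

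Trp53inp1, a p53-induced protein of the nucleus and of autophagosomes, read 129.7 and 157 units in the knockout and 125 and 152 units in wild type. The authors' table gave 44.5 and 77.3 units in the knockout and 45.9 and 51.5 units in wild type. The second knockout array stood above the other 3 in the authors' table, and the first knockout array was the lowest. The normalized difference was 0.14 ± 0.13 (log2) and was -0.02 without the second knockout array.

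Read together, 6 of the 8 members had a higher mean and 2 a lower mean in the knockout. Over all genes 8152 of 15955 had a higher mean. In 2 of 8 members the groups did not overlap, Gadd45g above and Bbc3 below wild type. Over all genes in the fit the groups did not overlap in 36.8%, with 19.4% above and 17.4% below. The count among the members, 25%, is under that background and belongs to the contrast with which the set was put together, so nothing is read from it. The direction of that background depended on the scaling, with 5614 genes above and 1527 below when arrays were scaled to the 75th percentile, and 1744 above and 2466 below in the authors' table. The median difference of the 8 was 0.10 (log2), beside 0.0017 for all genes. The members were chosen with this contrast in view, so nothing is read from that median or from the count of higher means.

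**Figure D3:**
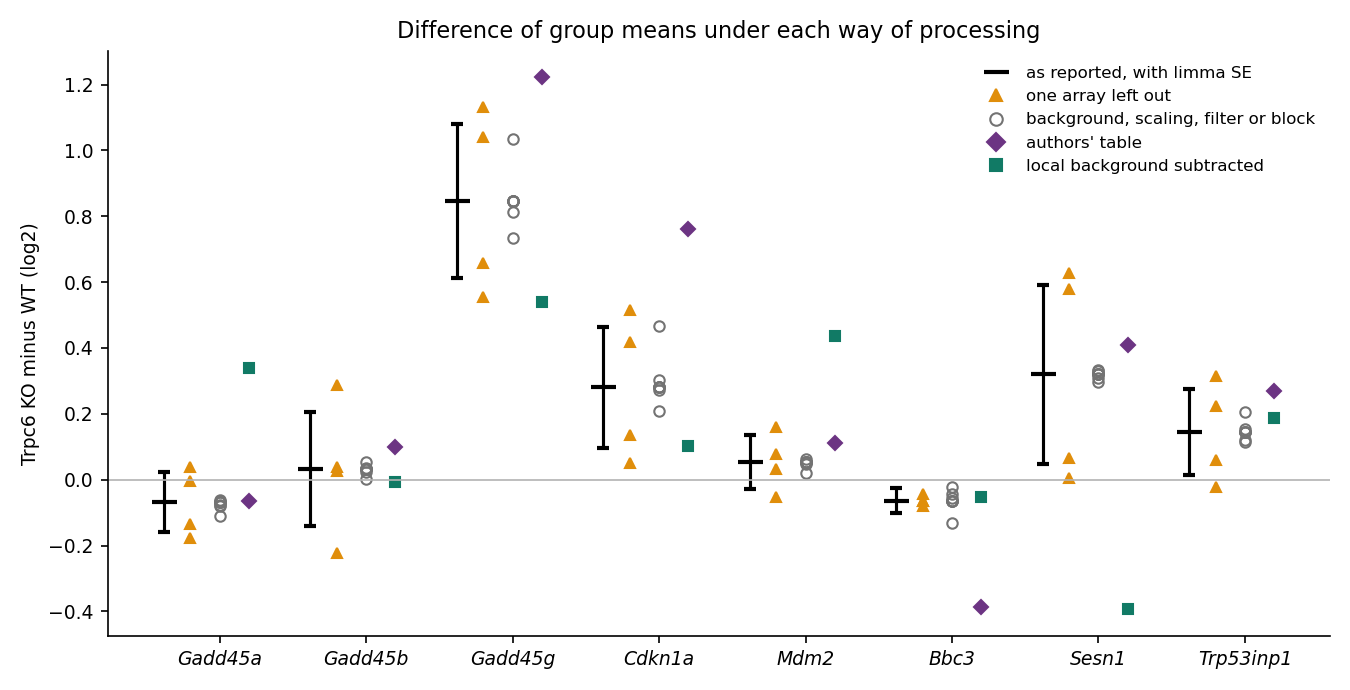
Difference of group means, Trpc6 KO minus WT on the log2 scale (y axis), for each measured member, as reported with its limma standard error (black) and under each of 14 alternatives (coloured by kind). The Gadd45g points run from 0.54 to 1.22 and those of Bbc3 from -0.39 to -0.02, and Gadd45a, Gadd45b, Mdm2, Sesn1 and Trp53inp1 fall on both sides of 0.

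The members also differed among arrays of the same genotype. Sesn1 was higher on the second than on the first array by 0.52 in the knockout and by 0.62 in wild type (log2), and 8 genes of 15955, Sesn1 included, were this far apart in the same direction in both groups. For Cdkn1a the same steps were 0.46 in the knockout and 0.29 in wild type, and for Trp53inp1 0.33 and 0.17. These 3 of 8 members, or 37.5%, were higher on the array numbered 2 in both groups, against 24.6% of all genes. Gadd45g went opposite ways, lower by 0.38 on the second knockout array and higher by 0.58 on the second wild-type array. Gadd45b was even in the knockout, with -0.01, and 0.51 apart in wild type. The numbers name the samples and are not said to pair them.

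**Figure D4:**
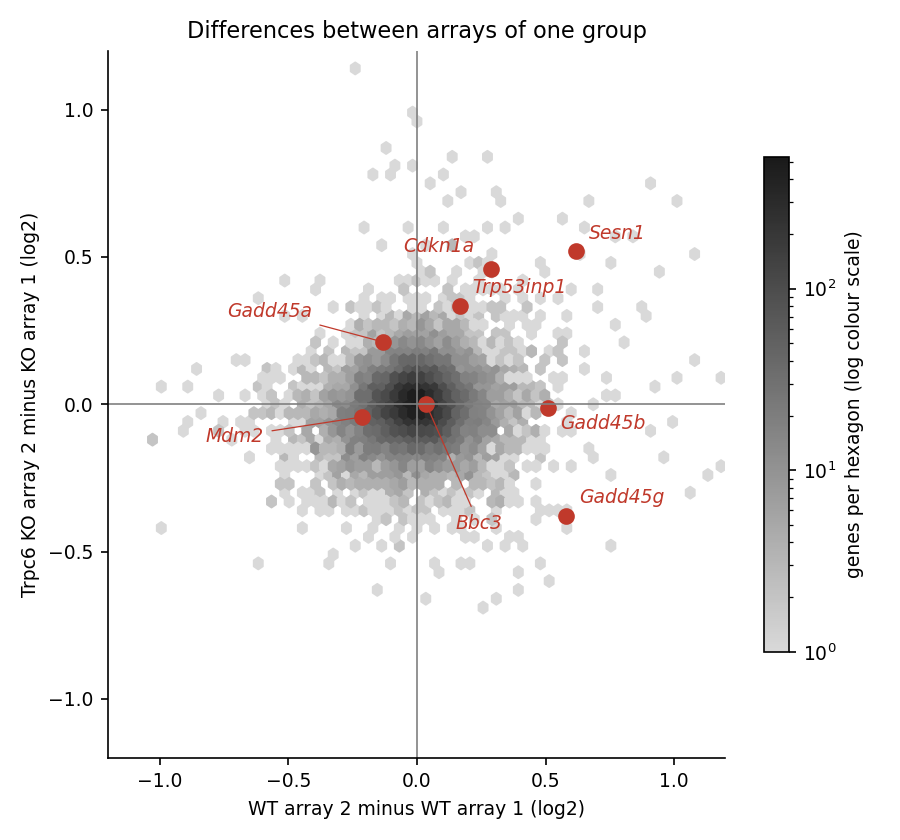
Difference between the second and the first array of a group on the log2 scale, in WT (x axis) and in Trpc6 KO (y axis), with the genes inside the axis limits as grey hexagons shaded by their number on a log colour scale and the 8 measured members as red points. Sesn1, Cdkn1a and Trp53inp1 lie at the upper right, Gadd45g at the lower right and Bbc3 near the centre.

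Genes whose values ran most like those of a member were found by the root mean square difference of centred log2 values over the 4 arrays. For Gadd45g the nearest 5 were Hbb-b2 and Hbb-bt, both beta-globin genes, the stress gene Ddit4, the histone gene H2ac24 and the repressor Nfil3, at distances of 0.22 to 0.27. These are looser matches than those of Sesn1 and Cdkn1a below. The measure is not scaled, so only genes with large differences between arrays can lie near Gadd45g. By absolute difference between the groups Ddit4, Hbb-bt and Hbb-b2 held ranks 3, 5 and 6. Hbb-b2 was at 8.83 and 8.61 in the knockout and 7.24 and 8.42 in wild type, so that, like Gadd45g, it was lowest on the first wild-type array. For Sesn1 the nearest 5 were Fas, the death receptor and also a p53 target, then Adh1, Gpihbp1, Rbp7 and Xlr3c, at distances of 0.04 to 0.06. Fas was at 7.67 and 8.30 in the knockout and 7.39 and 7.96 in wild type. For Cdkn1a they were Xdh, Rnf144b, Rsrp1, Ly6c2 and Ly6c1, at distances of 0.01 to 0.05. Rnf144b, which encodes a ubiquitin ligase, was at 6.55 and 7.04 in the knockout and 6.40 and 6.65 in wild type. The neighbours of Sesn1 and Cdkn1a were added after their values were seen.

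Other gene groups varied over the same arrays. The summed normalized intensity of 4 measured erythroid genes was 2292 and 2296 units in the knockout and 772 and 1858 units in wild type, lowest on the array where Gadd45g was lowest. Both beta-globin genes named above are among them, and Slc4a1, a further erythroid marker, did not reach the limit on at least 2 arrays. Of 5 measured atrial markers 2 read higher and 3 lower, with a median difference of -0.0003 (log2). Among them Nppa, the atrial natriuretic peptide, was at 11.99 and 12.61 in the knockout and 11.68 and 11.64 in wild type, and Myl4, an atrial myosin light chain, differed by -0.45 ± 0.37. Glucocorticoid targets had a median of 7.98 and 8.15 in the knockout and 7.47 and 8.06 in wild type (log2), and 81.2% of these 16 genes were higher on the second array in both groups, like Sesn1, Cdkn1a and Trp53inp1. Of 8 macrophage markers 6 read higher and 2 lower, with a median of 0.06. Of 8 endothelial markers 3 read higher and 5 lower, with a median of -0.06, and Egfl7 and Flt1 differed by -0.27 ± 0.05 and 0.20 ± 0.10. Fibroblast markers summed to 4190 and 3712 units in the knockout and 4876 and 4400 units in wild type, with 4 of 8 higher and 4 lower, a median of 0.0034, and the matrix gene Dcn at -0.47 ± 0.13. The marker genes named here were picked after their values were seen. The part of these in the members' values was not tested. In bulk tissue, fewer cells of a type and less RNA per cell cannot be told apart.

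The wider p53 network was then examined with lists that exclude the members. With limma, 0 of 15955 genes passed an adjusted p of 0.05, which is 0% of those tested, and 1076, or 6.74%, had an unadjusted p under that value, with 3.67% of all genes higher and 3.08% lower. Of all genes 8152 had a higher mean in the knockout, and 11130 did with scaling to the 75th percentile. The list counts below are read against these values and against the 36.8% without overlap. They carry no test of the list as a whole. In the 11 lists 0 genes passed the adjusted test.

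Regulators around p53 were centred near 0. Of 19 measured, 9 were higher and 10 lower in the knockout, 0 had an unadjusted p under 0.05, and the median difference was -0.0002 (log2), a sign that 6 of 13 alternatives kept. In 26.3% the groups did not overlap. Mdm4, the inhibitory partner of MDM2, differed by -0.01 ± 0.05. Its spot was dim, at 88.3 and 91.4 units in the knockout and 87.9 and 96.8 units in wild type, where the offset shrinks differences. Daxx, a histone chaperone, Chek2, a checkpoint kinase, Usp7, the deubiquitinase of MDM2, and Rpl11, a ribosomal protein that can bind MDM2, had the smallest p in the list, with differences of 0.12 ± 0.07, -0.09 ± 0.06, -0.08 ± 0.05 and 0.06 ± 0.04. Trp63 and Trp73, the relatives of p53, did not reach the detection limit on at least 2 arrays, and Trp53 had no probe under its symbol in the annotation used here.

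Other p53 targets read on both sides of 0. Of 53 measured, 24 were higher and 29 lower, with a median of -0.0068 (log2) whose sign 9 of 13 alternatives kept, and the groups did not overlap in 34.0%. At an unadjusted p under 0.05 there were 2 higher, Perp and Ddit4, and 1 lower, Btg2. Perp, a desmosomal protein required for p53-dependent cell death in mouse thymocytes, was at 9.86 and 9.93 in the knockout and 9.07 and 9.02 in wild type, with an adjusted p of 0.369. Btg2, an antiproliferative gene, was at 6.64 and 6.72 in the knockout and 7.03 and 7.14 in wild type, with an adjusted p of 0.727. Btg2 is also counted in the immediate early list below. Ddit4, an inhibitor of mTORC1, was at 8.26 and 8.36 in the knockout and 6.85 and 7.86 in wild type, with an adjusted p of 0.727, and is also counted in the mTORC1 and glucocorticoid lists below. Cd82, a tetraspanin, came next by p, with a difference of -0.13 ± 0.06. The 2 knockout arrays differed by 0.07 for Perp and by 0.38 for Gadd45g.

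**Figure D5:**
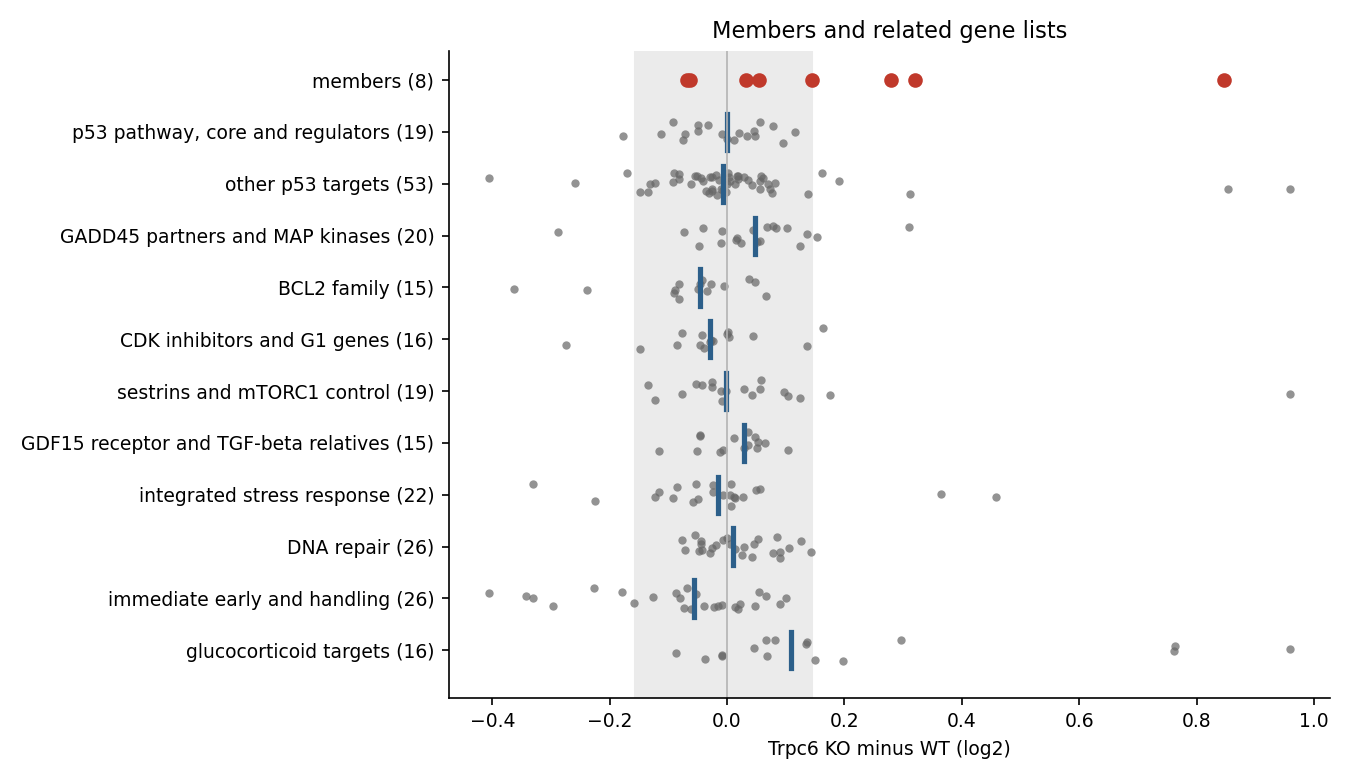
Trpc6 KO minus WT difference on the log2 scale (x axis) for the 8 measured members (red) and for the genes of 11 related lists (grey points, number of genes in brackets, with the list median as a blue bar), with the range that holds the central 90% of all genes shaded. The lists centre close to 0, and Gadd45g lies far to the right among the members.

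Among partners of the GADD45 proteins and the kinases below them, more read higher than lower. Of 20 measured genes 14 were higher and 6 lower, the median was 0.05 (log2), and the groups did not overlap in 13 of 20, with 11 above and 2 below wild type. Ppara, a nuclear receptor of fatty acid metabolism counted here with the GADD45 partners, was at 7.96 ± 0.14 in the knockout and 7.65 ± 0.07 in wild type (SD, n = 2). Mapk14, the kinase p38 alpha, differed by 0.15 ± 0.04, Cdk1 by 0.14 ± 0.05 and Map2k3, which activates p38, by 0.12 ± 0.05. The other p38 genes read lower, Mapk12 by -0.29 ± 0.13, Mapk13 by -0.05 ± 0.05 and Mapk11 by -0.04 ± 0.06. Both knockout arrays lay below both wild-type arrays for Mapk12. These p38 genes were added after their values were seen. At an unadjusted p under 0.05 stood 2 genes of the list, Ppara and Mapk14, each with an adjusted p of 0.727. The list's median was 0.02 with local background subtracted and 0.11 in the authors' table.

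In the BCL2 family, to which Bbc3 and Bax belong, more read lower than higher. Of 15 measured relatives 3 were higher and 12 lower, the median was -0.05 (log2), and the groups did not overlap in 60.0%. Mcl1, an anti-apoptotic member, was at 10.09 ± 0.09 in the knockout and 10.32 ± 0.04 in wild type, with an adjusted p of 0.727. The BH3-only gene Bcl2l11 and the mitophagy receptors Bnip3l and Bnip3 differed by -0.08 ± 0.04, -0.09 ± 0.05 and -0.36 ± 0.21. Bak1, the partner of Bax, differed by -0.03 ± 0.05, Bcl2 by -0.03 ± 0.08 and Bcl2l1 by 0.04 ± 0.04. The Bak1 spot was as dim as that of Bbc3, at 86.5 and 87.0 units in the knockout and 83.5 and 96.1 units in wild type. Its small difference is therefore not read as unchanged expression. The median was -0.15 in the authors' table and -0.01 with scaling to the 75th percentile.

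Relatives of the other members were read as well. Of 16 measured cyclin-dependent kinase inhibitors and G1 genes, 6 were higher and 10 lower, with a median of -0.03 (log2) and no overlap in 12.5%, and 1 (Ccnd3) had an unadjusted p under 0.05. Cdkn1b, encoding p27, differed by -0.04 ± 0.04 and Cdkn1c, encoding p57, by -0.27 ± 0.19. Ccnd3, a D-type cyclin, and Rb1, the retinoblastoma gene, differed by 0.14 ± 0.04 and 0.16 ± 0.11. The Cdkn1b spot was dim, at 90.5 and 88.1 units in the knockout and 87.3 and 99.2 units in wild type. In the authors' table Cdkn1b read 7.2 and 7 units in the knockout, below the 8.7 and 9.3 units in wild type. Of 19 sestrin and mTORC1 genes 9 were higher and 10 lower, with a median of -0.0024 whose sign 3 of 13 alternatives kept. Sesn2, the stress-inducible sestrin, was at 8.17 and 8.33 in the knockout and 8.41 and 8.34 in wild type, and Sesn3 differed by 0.03 ± 0.05. The Sesn3 spot was dim too, at 94.5 and 92.6 units in the knockout and 91.9 and 97.8 units in wild type. Trp53inp2, the paralogue of Trp53inp1, was at 10.42 on both knockout arrays and differed by 0.06 ± 0.06. Of 15 measured TGF-beta relatives of GDF15, 9 were higher and 6 lower, with a median of 0.03. That median ran from 0.0004 with local background subtracted to 0.07 with scaling to the 75th percentile. It was 0.01 without the first wild-type or the second knockout array. The GDF15 receptor genes Gfral and Ret are not among the 15, since they did not reach the limit on at least 2 arrays.

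Stress programmes that share targets with p53 were set beside it. The integrated stress response, which also drives Gdf15 and Sesn2, had 10 of 22 genes higher and 12 lower, with a median of -0.02 (log2). Its genes with the smallest p were Cebpb, a bZIP factor, at 0.46 ± 0.19, and Ppp1r15a, also named GADD34, at -0.23 ± 0.10. DNA repair genes were higher in 14 of 26 and lower in 12, with a median of 0.0093. Ung, the uracil glycosylase, and Xrcc1, a scaffold of base excision repair, differed by 0.14 ± 0.04 and 0.13 ± 0.04. Immediate early genes were higher in 8 of 26 and lower in 18, with a median of -0.06. That median was -0.24 in the authors' table, -0.01 with local background subtracted and -0.02 without the second knockout array. At an unadjusted limma p under 0.05 stood 3 genes of this list, all lower, beside 6.74% of all genes. Btg2, Jun, Socs3 and Nr4a1 differed by -0.41 ± 0.06, -0.34 ± 0.09, -0.16 ± 0.06 and -0.18 ± 0.07. Among glucocorticoid targets 12 of 16 read higher and 4 lower, the median being 0.11, or 0.04 without the first and 0.35 without the second wild-type array, and Ddit4, Mt1, Klf9 and Nfkbia differed by 0.96 ± 0.34, 0.76 ± 0.35, 0.08 ± 0.04 and 0.30 ± 0.15.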

How the data were processed

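Total RNA was amplified and labelled with Cy5, per the labels' protocols. The deposited scanner files give the median intensity of each of 27456 spots and of its local background, per the file headers, and the authors' table gives linear intensity of the same arrays, with a median of 25 in each column and values that follow the spot medians less a constant. Symbols came from the platform annotation, with 20690 of 23473 gene probes named.

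Spot medians were corrected with normexp (limma 3.58.1, R 4.3.3, offset 50, all spots), averaged per probe and quantile normalized on the log2 scale. Probes above the 95th percentile of blank and negative control spots on at least 2 arrays were kept, with the brightest probe per gene. The 15955 genes were fitted with lmFit and eBayes (2 residual and 2.49 prior degrees of freedom), adjusted by Benjamini-Hochberg. With 2 against 2 arrays an exact permutation cannot give a p under 0.333. Any p-value reflects how these 4 samples vary, and that variation may be technical.

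The members, the lists and the rule for named genes were chosen with earlier results of these data known. Named were the members, Trpc6, up to 4 genes per list by p, fixed paralogues and the 5 nearest profiles to Gadd45g.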

Additional observations from a re-analysis of the deposited data

How the results depend on the processing

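With 2 arrays per group every value rests on few points. The count of genes with an adjusted limma p under 0.05 was 0 in all alternatives, and the count at an unadjusted p, 1076 as reported, was 660 in the authors' table and between 444 and 2338 when 1 array was left out, where it was 444 without the second knockout array and 2338 without the first wild-type array. The split of that count, 585 higher and 491 lower, was 397 and 676 with median scaling, 718 and 415 with scaling to the 75th percentile and 198 and 462 in the authors' table. Genes whose groups do not overlap numbered 5867, and between 10020 and 12084 when 1 array was left out, since fewer arrays overlap less. The median of the other p53 targets, -0.0068 as reported, was 0.0297 with scaling to the 75th percentile. The filters, the mean of probes and the replicate block cannot change the difference of a member with 1 detected probe, and leaving out 1 array cannot turn its sign where the groups do not overlap, so such values say nothing of stability. The replicate number, added as a block, gave 1148 genes at an unadjusted p under 0.05 and 0 adjusted. The differences between arrays 2 and 1 correlated across genes at 0.10 between the groups, so the samples share a number and no more is known of a pairing.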
